A study of Oryza sativa Indica Group with 27 samples.

Results

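The 6 genes described here encode bZIP transcription factors of rice that act in the response to abscisic acid (ABA): OsbZIP23 (Os02g0766700), OsbZIP46 (Os06g0211200), OsbZIP72 (Os09g0456200), TRAB1 (Os08g0472000), OsABF1 (Os01g0867300), and OsABI5 (Os01g0859300). They were chosen by their Rice Annotation Project (RAP) identifiers from a table of 37869 genes, by a rule that used no measured value. By those identifiers, OsABF1 and OsABI5 lie on chromosome 1, OsbZIP23 on chromosome 2, OsbZIP46 on chromosome 6, TRAB1 on chromosome 8, and OsbZIP72 on chromosome 9. All 6 were listed, each reached 1 FPKM or more in some library, and 4 of the 6 did so in all 9 libraries. FPKM is a fragment count divided by the exon length of the gene and by the sequencing depth, so that levels of different genes can be compared.

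The study followed whole rice plants at the three-leaf stage, grown in Yoshida solution, when that solution was taken away. Libraries of mRNA came from untreated plants (0 h) and from plants 1 and 6 h after treatment (HAT). The 3 kinds of plant were wild-type Nipponbare (WT), a Nipponbare line that over-expresses a transgene the labels call AP2, and wild-type Vandana, which the labels describe as a drought tolerant Indica variety. The AP2 line is called erf71 here, because the paper describes OsERF71, a factor of the AP2/ERF family, as the gene overexpressed in that background. The promoter of the transgene, the number of lines, and the number of plants pooled in a library are not given in the sources used here. Each plant and time point had 1 library, so every difference below is a difference between 2 libraries with no replicate error and no test.

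ABA builds up in rice tissue that loses water. It binds PYL receptors, which then hold back the clade A protein phosphatases (PP2Cs), and kinases of the SnRK2 family, called SAPKs in rice, are freed to phosphorylate bZIP factors of this group. The phosphorylated factors bind ABA-responsive elements (ABREs), promoter motifs built on the core ACGT, and switch on genes for late embryogenesis abundant (LEA) proteins, dehydrins, and, in a feedback loop, the PP2Cs themselves. Because much of this control acts on the protein, mRNA levels of the factors do not measure their activity.

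Some libraries stood apart or went against their labels. The erf71 libraries held OsERF71 at 201, 172, and 264 FPKM (0, 1, and 6 HAT), and the WT libraries held it at 133, 122, and 187 FPKM, so that erf71 had 1.51, 1.41, and 1.42 times the WT level. In WT and erf71, 19 and 23 of 23 genes for PP2Cs, ABRE-driven targets, and ABA synthesis and breakdown were higher at 1 than at 0 HAT, but in Vandana 3 were higher and 19 were lower. These counts took any difference in FPKM, and the share of all genes was not computed for them. At the 2-fold limit defined below, 7 of 10 PP2C genes were lower at the Vandana 1 h label. So were 4 of 7 targets and 4 of 6 genes of ABA synthesis and breakdown, and none of these genes was higher. Of all genes tested, 9.18% were lower and 6.28% higher there. The dehydration marker Dip1 was at 383 FPKM in the library labelled Vandana 0 h and at 101 FPKM in that labelled Vandana 1 h, and NCED3, a gene of ABA synthesis, was at 36.5 and 1.20 FPKM. Directions between these 2 Vandana libraries therefore rest on labels that their marker genes go against, and the libraries were kept as labelled. The Vandana 6 h library had 12398 genes at 0, against 7323 to 9411 in the other 8, and a median of 0.343 FPKM over all genes, against 1.31 to 2.43. Vandana reads were placed on the Nipponbare genome, and the part of sequence differences in its values was not tested.

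OsbZIP23, OsABF1, and OsbZIP72 were the 3 highest in 8 of the 9 libraries, and TRAB1 and OsABI5 were the lowest pair in the same 8. The exception was the Vandana 6 h library, in which OsbZIP46 was highest and TRAB1 stood above OsbZIP72. By the median over the 9 libraries the order was OsbZIP23 (72.0 FPKM), OsABF1 (37.8 FPKM), OsbZIP72 (31.5 FPKM), OsbZIP46 (12.7 FPKM), TRAB1 (2.80 FPKM), and OsABI5 (1.20 FPKM). In untreated WT, OsbZIP72 led at 36.0 FPKM, ahead of OsbZIP23 and OsABF1, both at 26.7 FPKM, and OsbZIP46 at 13.0 FPKM. With no replicate, an order as close as that of OsbZIP23 and OsABF1 cannot be told from a tie.

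**Figure D1:**
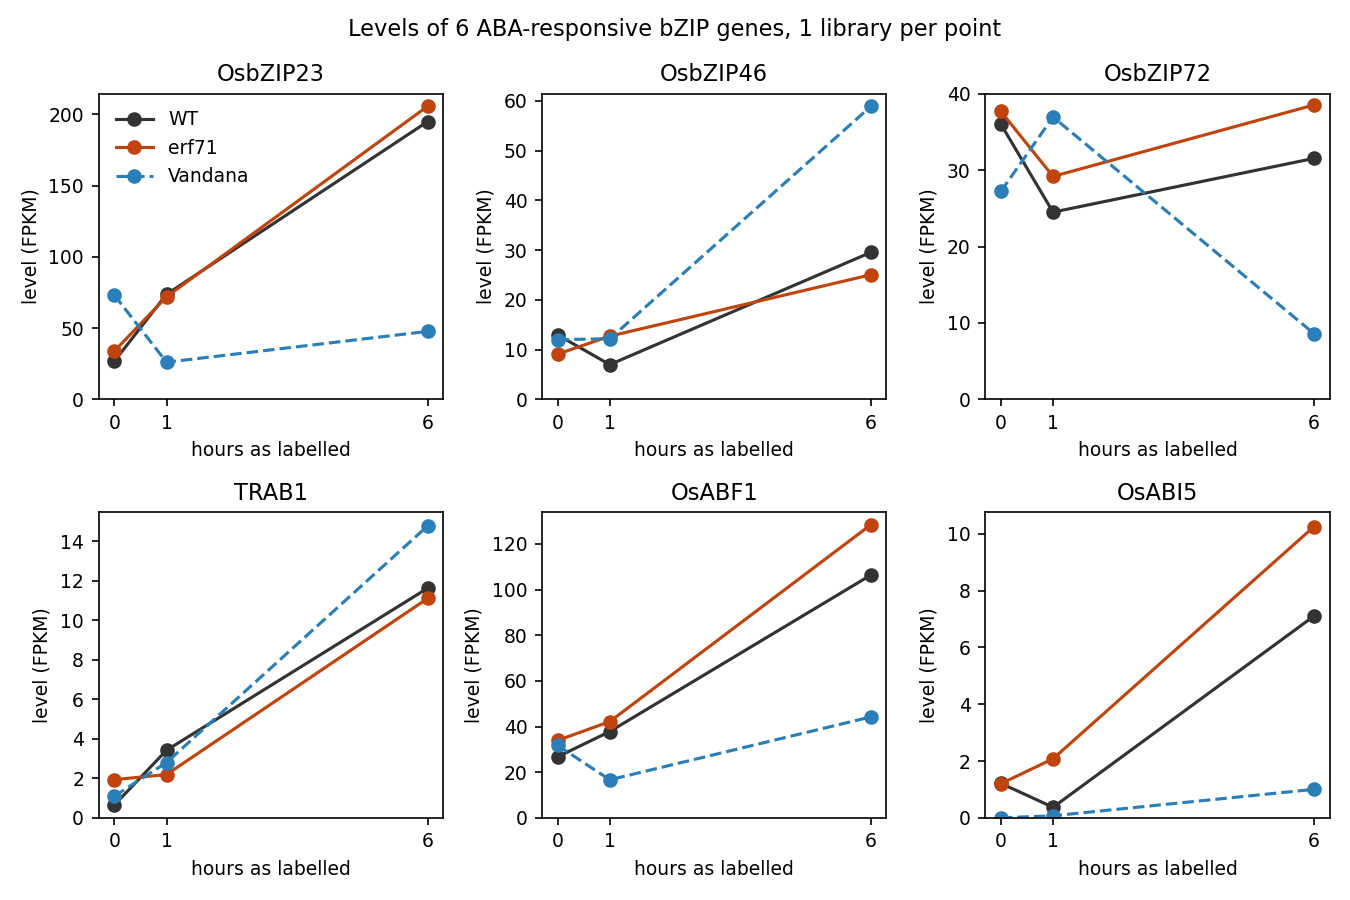
Level (FPKM) of each of the 6 genes against hours as labelled in WT, erf71, and Vandana (dashed), with 1 library per point and no error bars. OsbZIP23 and OsABF1 climbed along nearly the same line in WT and erf71, to 195 and 206 FPKM for OsbZIP23 at 6 HAT, whereas Vandana reached 47.7 FPKM.

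OsbZIP23 is a positive regulator of ABA sensitivity and of tolerance to drought and salt. In WT it was at 26.7, 73.7, and 195 FPKM at 0, 1, and 6 HAT. In erf71 it was at 33.9, 72.0, and 206 FPKM. The level was thus higher at each later time point in both plants, 7.29-fold from 0 to 6 HAT in WT and 6.07-fold in erf71. In Vandana it was at 73.2, 26.1, and 47.7 FPKM in the libraries labelled 0, 1, and 6 h. There the highest of the 3 values was in the library labelled 0 h, and it equalled that of WT at 1 HAT to within 1 FPKM.

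OsABF1 is an ABRE-binding factor induced by ABA, drought, and salt, and acts in drought tolerance. WT held it at 26.7, 37.8, and 106 FPKM over the 3 time points, and erf71 at 33.9, 42.2, and 128 FPKM. Most of the difference came after 1 HAT, with levels at 6 HAT 2.81-fold (WT) and 3.05-fold (erf71) those at 1 HAT, against 1.42-fold and 1.24-fold between 0 and 1 HAT. In Vandana it was at 31.7, 16.7, and 44.2 FPKM. The lowest of its 9 values was in the library labelled Vandana 1 h.

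OsbZIP46 is a regulator of drought tolerance whose protein needs activation by phosphorylation. Its WT levels were 13.0, 6.98, and 29.6 FPKM, and its erf71 levels were 9.09, 12.7, and 25.0 FPKM. Between 0 and 1 HAT the plants thus moved in opposite directions, by less than 2-fold in each, and at 6 HAT both stood at more than 2-fold their 0 h level. In Vandana it was at 12.0, 12.2, and 58.9 FPKM. The Vandana 6 h library held the highest of its 9 values, 1.99 times that of WT at 6 HAT.

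OsbZIP72 binds ABREs and acts as a positive regulator of ABA response and drought tolerance. It was the member that differed least over the WT and erf71 libraries: 36.0, 24.5, and 31.5 FPKM for WT, and 37.7, 29.2, and 38.5 FPKM for erf71. Both series had their lowest value at 1 HAT and at 6 HAT stood 1.14-fold below (WT) and 1.02-fold above (erf71) the 0 h level. In Vandana it was at 27.2, 37.0, and 8.59 FPKM. The value in the Vandana 6 h library was the lowest of the 9, at 4.30-fold below that labelled 1 h.

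TRAB1 was found as a partner of VP1, the seed regulator of ABA response, and activates ABA-induced transcription from ABREs. WT plants had 0.651, 3.42, and 11.6 FPKM, and erf71 plants 1.93, 2.19, and 11.1 FPKM. The levels at 6 HAT were close to each other, while at 0 HAT that of erf71 was 2.97-fold that of WT, at values where little absolute difference separated them. In Vandana TRAB1 was at 1.10, 2.80, and 14.8 FPKM. It was the only member with a higher value at each later label in all 3 plants. For Vandana this rests on the 0 and 1 h labels, which marker genes go against. In erf71 the first step was small, from 1.93 to 2.19 FPKM. VP1 itself was between 0 and 1.01 FPKM in the 9 libraries, with its highest value in erf71 at 6 HAT.

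OsABI5, related to the Arabidopsis seed factor ABI5, is an ABA-inducible factor known in rice for roles in salt response and fertility. The WT series read 1.22, 0.372, and 7.11 FPKM, and the erf71 series 1.20, 2.08, and 10.3 FPKM. Its levels were close at 0 HAT and 5.60-fold apart at 1 HAT, where the WT value was the lower one. In Vandana it was listed at 0 in the library labelled 0 h, and was at 0.0725 and 1.00 FPKM in those labelled 1 and 6 h. All 3 Vandana values were below the value of WT at the same label.

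The summed level of the 6 genes was 104, 147, and 381 FPKM in WT at 0, 1, and 6 HAT, and 118, 160, and 419 FPKM in erf71. Its make-up differed between time points. In WT, OsbZIP72 made up 34.5% of the sum at 0 HAT and 8.27% at 6 HAT, and OsbZIP23 made up 25.6% and 51.1%. In erf71 these shares were 32.0% and 9.19% for OsbZIP72, and 28.8% and 49.1% for OsbZIP23. The share of OsABF1 stayed between 25.6% and 30.6% in the 6 WT and erf71 libraries. In Vandana the sum was 145, 94.7, and 175 FPKM. At the 6 h label OsbZIP46 gave 33.6% of it, OsbZIP23 27.2%, OsABF1 25.2%, and OsbZIP72 4.90%. All sums are of FPKM as deposited, and they depend on how libraries are scaled. Matching libraries by their upper quartile would multiply the Vandana 6 h library by 2.21. The factors for WT and erf71 at 6 HAT would be 1.08 and 1.06.

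**Figure D2:**
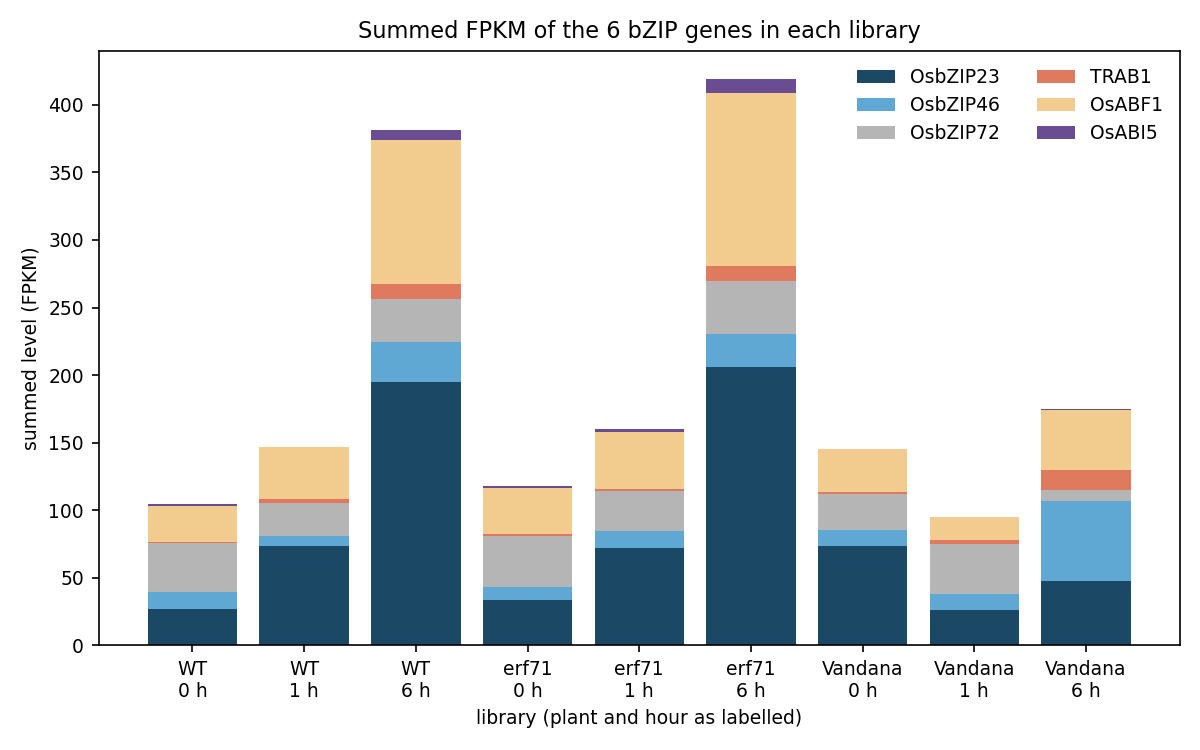
Summed level (FPKM) of the 6 bZIP genes in each of the 9 libraries, with 1 colour per gene and 1 library per bar. The sum reached 381 FPKM in WT and 419 FPKM in erf71 at 6 HAT, mostly OsbZIP23 and OsABF1, against 175 FPKM in the Vandana 6 h library. Sums are as deposited, and the gap between Vandana and the other plants at 6 h depends on how libraries are scaled.

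To set these values beside those of all genes, a gene was tested when either library of a pair held it at 1 FPKM or more, and was counted as higher or lower when its FPKM differed at least 2-fold. Changes are given as differences in log2(FPKM + 0.1), which understate the change of low genes. Other scalings were tried, in which libraries were matched by their upper quartile, by a median ratio (over genes that every library held above 1 FPKM), or by an equal sum of FPKM. FPKM is a share of each library, so that fewer cells of a type and less RNA per cell cannot be told apart.

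In WT from 0 to 1 HAT, OsbZIP23 (1.46 on the log2 scale) and TRAB1 (2.23) were counted as higher, and OsABI5 (-1.48) as lower. OsABI5, at 1.22 and 0.372 FPKM, was no longer counted with upper quartile scaling, with 1 FPKM added (-0.69), or with a minimum of 5 FPKM. TRAB1, at 0.651 and 3.42 FPKM, was also not counted with that minimum. Among the 23788 genes tested, 10.8% were higher and 12.9% lower, and the median change was -0.20. When libraries were scaled to an equal sum of FPKM, 57.6% in place of 45.7% of the counted genes were higher. From 1 to 6 HAT, 5 of the 6 genes were higher, led by OsABI5 (3.93) and OsbZIP46 (2.07), with OsbZIP72 (0.36) under 2-fold. Of all genes tested, 12.5% were higher and 31.0% lower over this interval.

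Over 0 to 6 HAT in WT, the same 5 genes were higher: TRAB1 (3.97), OsbZIP23 (2.86), OsABI5 (2.45), OsABF1 (1.99), and OsbZIP46 (1.18). The median change was 2.22 over the 6 members and -0.60 over all 23810 genes tested, of which 14.8% were higher and 38.0% lower. Of all tested genes, 2.67% had a larger change than TRAB1 and 4.75% a larger one than OsbZIP23. OsbZIP72 changed by -0.19, which lay 0.41 above the median of all genes and became 0.21, 0.16, and 0.07 with upper quartile, median ratio, and equal sum scaling. The median over all genes was -0.18, -0.24, and -0.33 with these scalings, and the share of counted genes that were higher went from 28.1% to 42.5% with the first of them. For the 1 to 6 HAT interval that share went from 28.7% to 42.7%.

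In erf71 from 0 to 1 HAT, OsbZIP23 (1.09) was the only member counted as higher and no member was lower, at a background of 5.98% of genes higher and 6.41% lower. From 1 to 6 HAT, 4 of the 6 genes were higher, TRAB1 (2.29), OsABI5 (2.25), OsABF1 (1.60), and OsbZIP23 (1.51), where 13.9% of all genes were higher and 30.2% lower. OsbZIP46 fell just under the 2-fold limit over that interval at 1.97-fold, and passed it with upper quartile (1.24) and median ratio scaling (1.16). From 0 to 6 HAT the 5 genes counted in WT were also counted in erf71, with OsABI5 (2.99) and OsbZIP23 (2.60) leading, against 15.2% of all genes higher and 35.6% lower. The median change over 0 to 6 HAT was 2.19 for the members and -0.53 for all genes. OsbZIP72 changed by 0.03. With upper quartile scaling, the share of counted genes that were higher went from 29.9% to 42.0% for 0 to 6 HAT, and from 31.6% to 43.2% for 1 to 6 HAT.

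In Vandana, comparisons with the 0 and 1 h labels carry the doubt given above. Between those 2 libraries TRAB1 was higher (1.27) and OsbZIP23 lower (-1.48) at the 1 h label, where 6.28% of all genes were higher and 9.18% lower. OsABI5 was under 1 FPKM in both and was not counted. TRAB1, at 1.10 and 2.80 FPKM, was not counted with a minimum of 5 FPKM or with 1 FPKM added (0.86). Between the labels 1 and 6 h, OsABI5 (2.68), TRAB1 (2.36), OsbZIP46 (2.26), and OsABF1 (1.40) were higher and OsbZIP72 (-2.09) was lower. The background was 16.0% higher and 62.1% lower. OsABI5 went from 0.0725 to 1.00 FPKM, barely at the limit, and was not counted with equal sum scaling. Its change was 0.90 with 1 FPKM added. Between 0 and 6 h, TRAB1 (3.63) and OsbZIP46 (2.29) were higher, OsABI5 was higher from a listed 0 to a level barely at the limit of 1 FPKM (not counted with equal sum scaling), and OsbZIP72 (-1.65) was lower, while 14.9% of all genes were higher and 61.7% lower.

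The size of the Vandana values at the 6 h label depended on how libraries were scaled. The median change of all tested genes from 0 to 6 h was -1.71 as deposited, and -0.25 and -0.53 with upper quartile and median ratio scaling. OsbZIP72, at -1.65, lay 0.06 above that median, and its change became -0.30 and -0.56. The change of OsbZIP23 turned from -0.62 to 0.74 and 0.48, and that of OsABF1 went from 0.48 to 1.84 and 1.58. With upper quartile scaling the share of counted genes that were higher went from 19.4% to 45.0% for 0 to 6 h and from 20.5% to 43.3% for 1 to 6 h. TRAB1 and OsbZIP46 were higher at least 2-fold at the 6 h label against both earlier labels under each of the 3 scalings tried.

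**Figure D3:**
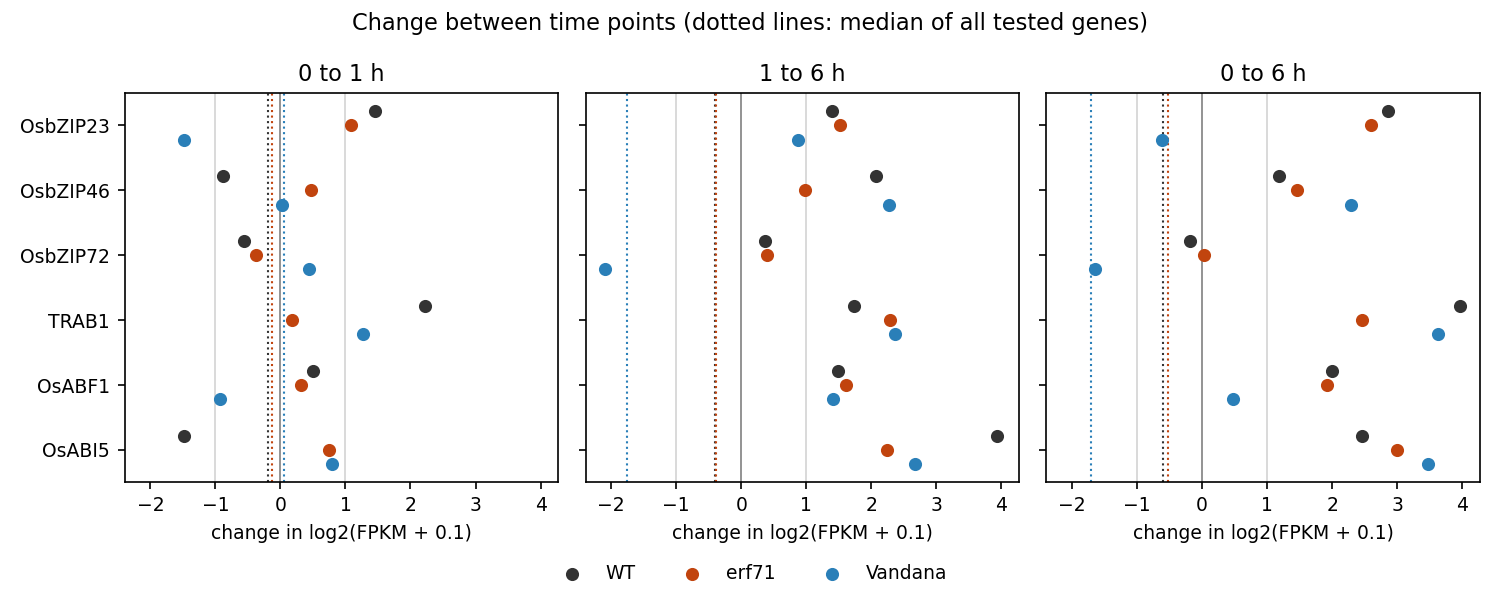
Change of each of the 6 genes in log2(FPKM + 0.1) between time points in WT, erf71, and Vandana, with 1 point per pair of libraries, grey lines at 0 and at 2-fold, and a dotted line per plant at the median of all tested genes. From 0 to 6 h, 5 of 6 genes in WT and erf71 lay beyond 2-fold higher, while OsbZIP72 was at -0.19 and 0.03.

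The comparison of erf71 with WT at the same time point asks what overexpression of OsERF71 goes with in the supply of these factors. At 0 HAT, TRAB1 was higher in erf71 (1.44), and no member was lower, where 5.48% of all genes were higher and 6.94% lower. At 1 HAT, OsABI5 was higher (2.21) and no member was lower, against 8.65% and 10.7% of all genes. OsbZIP46 was 1.82-fold higher at 1 HAT, under the limit. At 6 HAT, none of the 6 genes differed 2-fold, where 5.44% of all genes were higher and 6.65% lower. Their differences at that time ran from -0.24 for OsbZIP46 to 0.52 for OsABI5.

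Both members that differed 2-fold between erf71 and WT did so where levels were low. TRAB1 at 0 HAT stood at 0.651 against 1.93 FPKM, and OsABI5 at 1 HAT at 0.372 against 2.08 FPKM. Neither was counted when at least 5 FPKM was asked of 1 library, and TRAB1 was not counted when 1 FPKM was added to each value before the ratio. For OsbZIP23 and OsABF1, the members with the largest gains in FPKM over both Nipponbare series, erf71 stood at 0.976 to 1.27 times the WT level at all 3 time points. The difference of OsbZIP23 at 6 HAT, 0.08, became -0.02 with equal sum scaling, and that of OsABI5 at 0 HAT, -0.02, became 0.03, 0.02, and 0.01 with the 3 scalings.

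The comparison of Vandana with WT uses the same WT libraries as that of erf71. Against WT at the same label, Vandana had a higher OsbZIP23 (1.45) and a lower OsABI5 (1.22 FPKM in WT, listed at 0 in Vandana) at 0 h, where 13.1% of all genes were higher and 20.7% lower. The doubt about the 0 and 1 h labels of Vandana touches both these time points. At the 1 h label OsbZIP23 (-1.50) and OsABF1 (-1.18) were lower and no member was higher, against 19.8% of all genes lower and 14.2% higher. The OsbZIP23 level labelled Vandana 0 h (73.2 FPKM) was close to that of WT at 1 HAT (73.7 FPKM), and the level labelled 1 h (26.1 FPKM) was close to that of WT at 0 HAT (26.7 FPKM), so that both of its calls rest on those labels. At the 6 h label OsABI5 (-2.71), OsbZIP23 (-2.03), OsbZIP72 (-1.86), and OsABF1 (-1.26) were lower, which is 4 of 6 genes where 54.5% of all genes were lower and 17.5% higher. The median difference of all genes was -1.24 there, so that OsABF1 lay at that median and OsABI5 lay 1.47 below it. With upper quartile scaling that median was -0.15 and the share of counted genes that were higher went from 24.3% to 47.0%. Under this scaling OsbZIP23 (by a small margin), OsbZIP72 (-0.84), and OsABF1 (-0.23) were under the limit, and OsbZIP46 (2.03) and TRAB1 (1.37) were past it as higher in Vandana. Of the members, 2 were then higher and 1 lower, and with median ratio scaling 2 were higher and 3 lower.

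**Figure D4:**
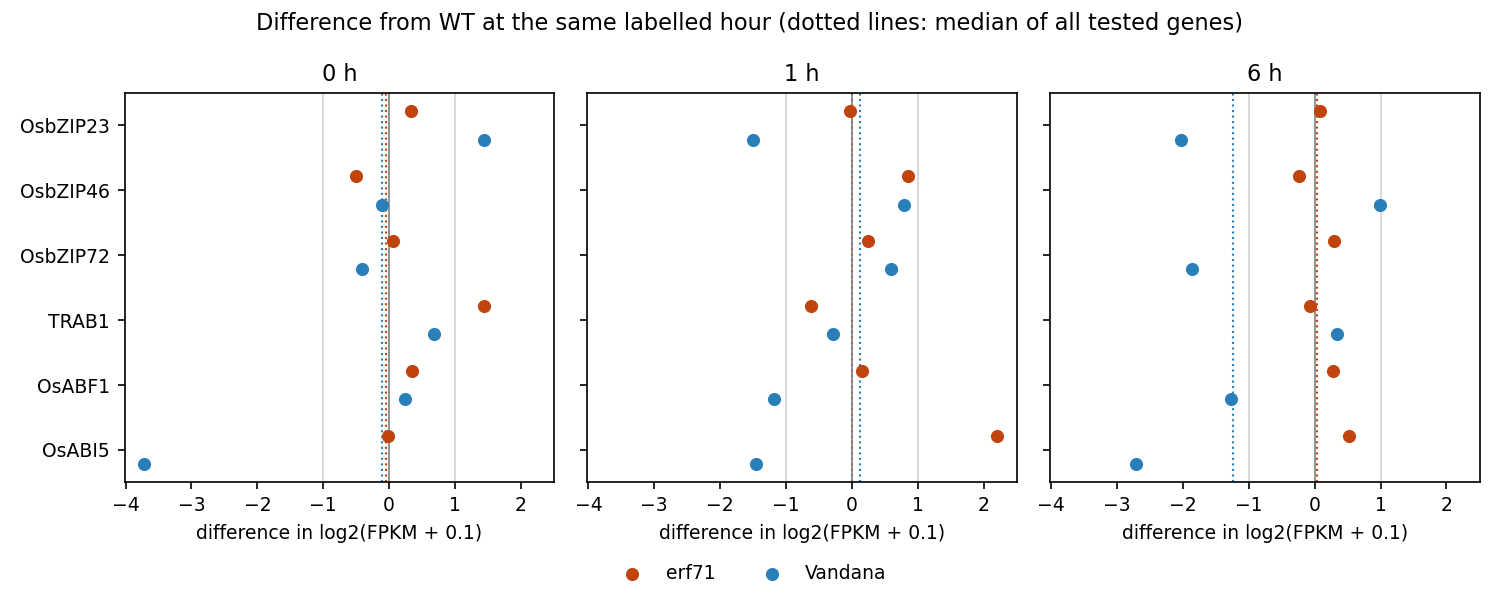
Difference of erf71 and of Vandana from WT in log2(FPKM + 0.1) for each of the 6 genes at each labelled hour, with 1 point per pair of libraries, grey lines at 0 and at 2-fold, and dotted lines at the median of all tested genes. The erf71 points lay within 2-fold of WT apart from TRAB1 at 0 h (1.44) and OsABI5 at 1 h (2.21), and the Vandana median lay at -1.24 at 6 h.

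The other steps of the pathway were described with lists of known genes. Among the 10 SAPK genes, 4 were higher and none lower in WT from 0 to 6 HAT, with changes from -0.73 for SAPK5 to 2.66 for SAPK6, and 5 were higher in erf71. From 0 to 1 HAT, 2 of the 10 were higher in WT and none in erf71, which is near the background of 10.8% and 5.98% of all genes. Among the 10 clade A PP2C genes, the brakes on these kinases, 9 were higher in both plants from 0 to 6 HAT, where 14.8% (WT) and 15.2% (erf71) of all genes were. They ranged from 0.19 for OsPP2C53 to 7.81 for OsPP2C51 in WT, with a median of 4.99. From 0 to 1 HAT, 7 PP2C genes were higher in WT and 5 in erf71, against the same background as the SAPK genes.

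The list of ABRE-driven targets held the dehydrins RAB16A to RAB16D, the LEA genes OsLEA3 and EMP1, and Dip1. From 0 to 6 HAT all 7 were higher in both plants, by a median of 5.60 for WT and 5.89 for erf71. At 1 HAT, 1 of 7 was higher than at 0 HAT in WT, Dip1 (1.83), and 6 of 7 were higher in erf71. Set directly against WT at 1 HAT, 6 of the 7 were at least 2-fold higher in erf71, where 8.65% of all genes were. OsLEA3 was barely past the limit in that count, at 2.02-fold. These 6 held EMP1 (4.36) and not Dip1 (-0.05), whereas the 6 higher in erf71 from 0 to 1 HAT held Dip1 (1.87) and not EMP1 (0.21). At 0 HAT, EMP1 was already 16.8-fold higher in erf71 than in WT. Of the 7 targets, 1 was higher and 1 lower at 0 HAT, against 5.48% and 6.94% of all genes. EMP1, whose promoter is a classical target of TRAB1, had 1.07, 0.920, and 260 FPKM in the WT series, and 18.0, 20.9, and 178 FPKM in the erf71 series. The RAB16 genes are close copies, and how reads were divided among them is uncertain.

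Of 6 genes of ABA synthesis and breakdown, 5 were higher and 1 was lower in WT from 0 to 6 HAT, from NCED4 (8.65), an enzyme of ABA synthesis, to ABA8OX3 (-1.10), an ABA hydroxylase. In erf71, 5 were higher and none lower over the same interval. At 1 HAT, 3 of the 6 were at least 2-fold lower in erf71 than in WT and none was higher, where 10.7% of all genes were lower and 8.65% higher. The 3 were NCED4 (0.238 times the WT level) and NCED3 (0.493 times) of ABA synthesis, and the ABA hydroxylase gene ABA8OX1 (0.288 times). NCED3 was barely past the limit. The WT levels of NCED3 were 1.09, 41.3, and 118 FPKM, and its erf71 levels were 1.42, 20.3, and 180 FPKM. In Vandana from 0 to 6 h, the counts were 7 of 7 targets higher, 7 PP2C genes higher and 1 lower, 1 SAPK gene higher and 2 lower, and 2 genes of ABA synthesis and breakdown higher and 1 lower, at a background of 14.9% of all genes higher and 61.7% lower.

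**Figure D5:**
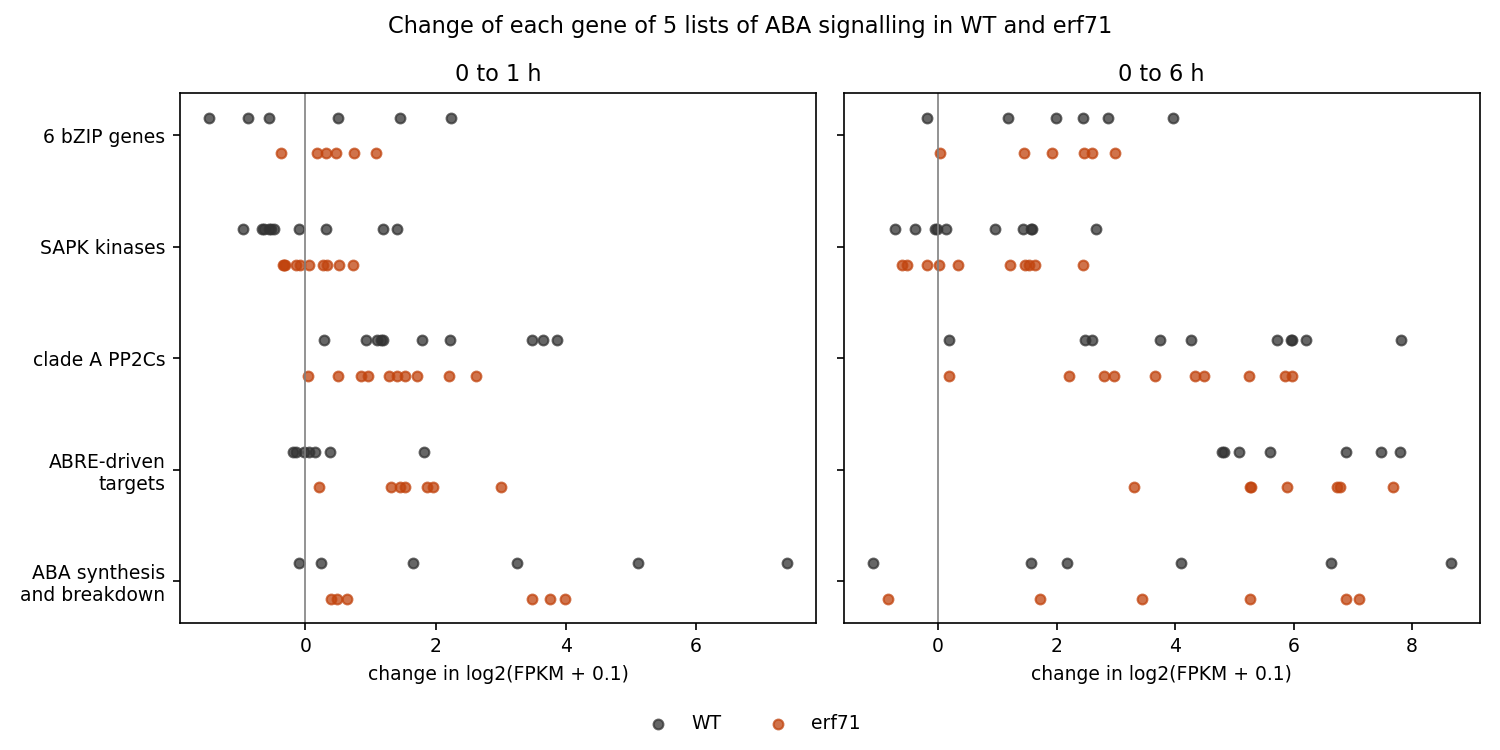
Change of each gene of 5 lists in log2(FPKM + 0.1) from 0 to 1 h and from 0 to 6 h in WT and erf71, with 1 point per gene. From 0 to 1 h the ABRE-driven targets of erf71 lay to the right of those of WT (6 and 1 of 7 genes at least 2-fold higher), and from 0 to 6 h all 7 were higher in both plants.

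Likeness of pattern was measured as Pearson's r of log2(FPKM + 0.1) over the 9 libraries, which share plants, time labels, and 2 series with a common background. It is a description over 18797 genes that reached 5 FPKM in any library. Among the members, OsbZIP23 and OsABF1 were most alike (0.920), and OsABF1 and OsABI5 followed (0.834). OsbZIP46 was most like TRAB1 (0.753), and OsbZIP72 was least like OsbZIP46 (-0.606). The latter value rested on the Vandana 6 h library, since it was 0.384 without it. OsbZIP46 and TRAB1 were at 0.649 without that library, and OsbZIP46 was then most like OsABF1 (0.745). OsbZIP23 and OsABF1 stayed at 0.933 without that library, and at 0.955 over the 6 WT and erf71 libraries. Over these 6, OsbZIP23 was most like TRAB1 (0.964), and OsbZIP46 was most like OsABI5 (0.959).

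Among all genes, those most like a member are given by identifier, since the files do not pair them with names. OsbZIP23 was most like Os01g0850100 (0.986) and Os09g0452900 (0.983), and OsABF1 was most like Os05g0163700 (0.991) and Os04g0476600 (0.989). Os05g0163700 was at 41.3, 47.0, and 136 FPKM in WT, at 47.4, 55.6, and 137 FPKM in erf71, and at 40.4, 21.9, and 61.8 FPKM in Vandana. OsbZIP46 was most like Os06g0196200 (0.988) and Os03g0137300 (0.986), and OsbZIP72 was most like Os01g0757800 (0.989) and Os07g0627800 (0.988). TRAB1 was most like Os07g0638300 (0.966) and Os08g0467300 (0.960), and OsABI5 was most like Os12g0631100 (0.985) and Os06g0219600 (0.980). With 9 values for each of so many genes, high values of r are easily reached. OsbZIP23 and OsABF1 each kept their own nearest pair with median ratio scaling, and for the other 4 members at least 1 of the pair was another gene. Over the WT and erf71 libraries alone, OsbZIP23 and OsABF1 each had 2 other nearest genes. The same was true of OsbZIP23 without the Vandana 6 h library, and of OsABF1 with Spearman's rho.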

How the data were processed

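The authors sequenced mRNA libraries (TruSeq), mapped reads to the rice genome build IRGSP-1.0 and deposited FPKM values per RAP gene. The submitters' processing notes name CASAVA 1.8.2, TopHat2, Cufflinks, and Bowtie. No read counts were used, so depth is unknown, and low FPKM values did not give whole reads. Tables of lincRNA and small RNA were not used here. Columns were matched to the mRNA samples by plant and hour.

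The rule for the 6 members names identifiers and uses no value, but the members and the other gene lists were chosen with earlier results of these data known. With 1 library per plant and time point, differences between 2 libraries were described and no test was run. A gene was tested when either library of a pair held it at 1 FPKM or more, and counted when the ratio was at least 2-fold. Log2 changes were taken after adding 0.1 FPKM. Alternatives were 3 scalings, minimums of 0 and 5 FPKM, 1.5-fold and 4-fold limits, added values of 0.1 and 1 FPKM, Spearman's rho, and subsets of libraries, of which the one without the Vandana 6 h library was chosen after seeing the data. Scripts used Python 3.11.15, numpy 2.4.6, pandas 2.3.3, and matplotlib 3.10.9, and the counting was tested on simulated data.

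Named genes were all members, the genes of each list with the largest and smallest change from 0 to 6 HAT in WT, Dip1, NCED3, and OsERF71, and the 2 genes most like each member. OsLEA3 and ABA8OX1 were also named, after their values were seen. Sequences of the members and a list of other bZIP genes were not analysed here, as the reference table held no RAP identifiers.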

Additional observations from a re-analysis of the deposited data

Results flagged for a closer look

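In 5 cases a member moved one way in WT and the other way in another plant over the same interval, with a change of at least 2-fold in at least 1 of them. Each rests on 2 libraries per plant, and no difference was tested. The share of all genes that did the same was not computed, so the count has no background to be read against. Over 0 to 1 HAT, the log2 change of OsABI5 was 2.22 higher in erf71 (0.74) than in WT (-1.48), at levels of 0.372 to 2.08 FPKM. Over the same labels, the change of OsbZIP23 differed by -2.94 between Vandana (-1.48) and WT (1.46), and that of OsABI5 by 2.27, where the Vandana values were 0 and 0.0725 FPKM. Over 1 to 6 HAT, the change of OsbZIP72 differed by -2.46 between Vandana (-2.09) and WT (0.36). The median of all tested genes in Vandana was -1.76 there, with 62.1% of genes at least 2-fold lower. With upper quartile scaling these changes were -0.79 and 0.69, both under 2-fold. They were -1.02 and 0.54 with median ratio scaling. Over 0 to 6 HAT, the change of OsbZIP23 differed by -3.48 between Vandana (-0.62) and WT (2.86). The Vandana change became 0.74 with upper quartile and 0.48 with median ratio scaling, the direction of WT. All 4 Vandana cases use a library labelled 0 or 1 h, labels that marker genes go against. The lower OsABI5 in WT at 1 HAT was not counted with upper quartile scaling or with 1 FPKM added.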

How the results depend on the processing

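Each plant and time point had 1 library, so replicates could not be paired, and a fit with the hour as a block was not run. Counts of the 6 members called at least 2-fold stayed within 1.5 times of those reported with median ratio and equal sum scaling. The same held with no minimum and with 0.1 FPKM added. Behind these counts, directions moved for Vandana with median ratio scaling. Against WT at 6 h they went from 0 higher and 4 lower to 2 higher and 3 lower (28.5% and 40.8% of all genes). From 0 to 6 h they went from 3 higher and 1 lower to 4 higher and 0 lower (27.8% and 43.1% of all genes). The count was 1 for Vandana against WT at 0 h with upper quartile scaling (14.3% of all genes higher and 18.9% lower). Brackets below give these 2 shares for each count. With a minimum of 5 FPKM, WT had 1 (9.91% and 9.80%) and Vandana 1 (3.16% and 7.57%) from 0 to 1 h. The counts were 0 for erf71 against WT at 0 h (3.17% and 4.05%) and at 1 h (6.17% and 8.60%). Vandana against WT at 0 h had 1 (11.6% and 15.8%). At 4-fold, WT had 1 from 0 to 1 h (5.58% and 4.17%) and 2 from 1 to 6 h (5.57% and 13.4%). From 0 to 1 h erf71 had 0 (2.21% and 2.06%), and from 1 to 6 h it had 2 (6.31% and 13.2%). From 0 to 6 h WT had 3 (7.98% and 17.7%), and erf71 also had 3 (7.96% and 16.9%). Vandana had 0 from 0 to 1 h (1.83% and 3.79%), and erf71 against WT had 0 at 0 h (2.15% and 2.08%). Vandana against WT had 1 at 0 h (6.37% and 12.0%) and 0 at 1 h (5.38% and 12.5%). At 6 h it had 2 (8.64% and 38.2%). At 1.5-fold, erf71 had 2 from 0 to 1 h (10.8% and 14.5%) and 3 against WT at 1 h (16.7% and 19.6%). Vandana against WT at 1 h had 4 (26.5% and 25.9%). With 1 FPKM added, Vandana had 1 from 0 to 1 h (3.14% and 6.53%), and erf71 against WT had 0 at 0 h (3.40% and 3.71%). Stricter limits count fewer genes by construction; for the scalings the cause was not tested. Of 90 log2 changes, 90 kept their side of the 2-fold limit with equal sum, 83 with median ratio, and 80 with upper quartile scaling, and 85 with 1 FPKM added. The order of the members by median level was the same over the WT and erf71 libraries alone. The lists of other bZIP genes and the sequence features could not be run.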
